A study of Mus musculus with 10 samples.

Results

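Ubiquitin is joined to proteins by a relay in which an activating enzyme (E1) loads a conjugating enzyme (E2), and a ligase (E3) brings the E2 to its target. The E2 largely sets which kind of ubiquitin chain is built, and deubiquitinases, of which the ubiquitin-specific proteases (USP) are the largest family, take chains apart again. In oocytes this system is known for the timed destruction of cyclin B and securin at the meiotic divisions and for the clearing of maternal proteins after fertilisation. The genes described here are those whose platform symbol starts with Ube2 and a letter or with Usp and a number. Of 83 such genes, 71 were above a log2 value of 5 (an intensity of 32) in at least 4 of 10 samples and were followed. These were 30 of 32 Ube2 genes and 41 of 51 Usp genes, among 10589 genes of the whole series that passed the same level. Where a gene had several probe sets, the one with the highest mean over the 10 samples stood for it.

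The study set oocytes of RNAi-transgenic mice, whose transgene lowers basonuclin (Bnc1) mRNA by RNA interference in oocytes only, against oocytes of non-transgenic mice. There were 6 RNAi-transgenic samples (replicates 4, 5, 6, 11, 12 and 13) and 4 non-transgenic samples (replicates 1, 2, 7 and 8), each of RNA from about 50 fully grown oocytes of the germinal vesicle stage from 1 mouse, read on 1 biotin-labelled oligonucleotide array. Strain, age and the transgene's promoter are not given in the sources used here. A difference is the log2 value of RNAi-transgenic minus non-transgenic oocytes, tested with limma over all 10589 genes, and a gene passed at a Benjamini-Hochberg adjusted p below 0.05. Some fits below hold only samples numbered 1 to 6 (non-transgenic 1 and 2, RNAi-transgenic 4, 5 and 6). Others hold only samples numbered 7 to 13 (non-transgenic 7 and 8, RNAi-transgenic 11, 12 and 13). With so few arrays, a gene can fail to pass there at much the same difference. Less of an mRNA in each oocyte and fewer oocytes that hold it cannot be told apart in such bulk samples.

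Bnc1 was at log2 3.67 to 4.26 (median 3.77) in the 6 RNAi-transgenic samples, all below the level of 5, against 11.40, 11.51, 11.61 and 11.76 in the non-transgenic samples, which places each sample with its label. It was at least 95.1-fold lower, set against that level (limma adjusted p = 2.63e-11). All 12 oocyte markers looked at were above the level, among them the zona pellucida gene Zp3 at 14.59 ± 0.12 (SD, n = 6) in RNAi-transgenic and 14.61 ± 0.07 (SD, n = 4) in non-transgenic oocytes. Of these markers Kit rose, by 0.78, and Figla and Dppa3 fell, by 0.54 and 0.21 on the log2 scale. Among 17 markers with a probe set for the follicle's granulosa and cumulus cells, 7 were above the level. Of them 2 rose (Fshr by 1.24, and Cyp11a1 to at least 2.95-fold, with 1 non-transgenic sample below the level) and 0 fell in limma. The summed intensity of all 17 was 1729 to 2817 in RNAi-transgenic and 1800 to 2007 in non-transgenic samples. Their brightest, Nr5a2 and Gja1, were at 9.87 and 8.56 in RNAi-transgenic and at 9.94 and 8.01 in non-transgenic oocytes. For blood and immune cells 4 of 9 markers were above the level, with Laptm5 higher by 1.06 and Srgn lower by 0.56. The summed intensity of all 9 was 2288 to 3399 in RNAi-transgenic and 2953 to 3309 in non-transgenic samples. The part of these cells in the results below was not tested.

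The largest increase and the largest decrease of each class mark its range, and their promoters are shown for that reason. Promoters are 250 bases before to 50 bases after the annotated start, from RefSeq (GRCm38.p6), which held a promoter for 54 of the 71 genes. Ube2u lies at chr4:100478617-100478916, Ube2r2 at chr4:41135771-41136070, Usp17la at chr7:104856766-104857065 and Usp45 at chr4:21776020-21776319, all on the plus strand. Capitals mark every match, on either strand, to a list of 6 short motifs.
Ube2u: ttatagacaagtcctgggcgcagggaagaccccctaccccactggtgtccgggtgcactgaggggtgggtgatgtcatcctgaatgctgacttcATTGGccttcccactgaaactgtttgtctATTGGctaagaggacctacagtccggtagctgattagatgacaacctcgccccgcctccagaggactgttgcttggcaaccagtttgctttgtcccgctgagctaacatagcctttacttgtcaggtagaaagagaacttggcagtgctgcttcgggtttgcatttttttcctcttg
Ube2r2: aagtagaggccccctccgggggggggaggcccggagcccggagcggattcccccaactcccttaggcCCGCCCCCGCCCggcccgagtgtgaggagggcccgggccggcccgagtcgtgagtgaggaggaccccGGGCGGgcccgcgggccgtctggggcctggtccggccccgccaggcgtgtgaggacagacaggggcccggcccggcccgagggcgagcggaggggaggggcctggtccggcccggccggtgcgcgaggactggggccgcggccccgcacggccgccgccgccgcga
Usp17la: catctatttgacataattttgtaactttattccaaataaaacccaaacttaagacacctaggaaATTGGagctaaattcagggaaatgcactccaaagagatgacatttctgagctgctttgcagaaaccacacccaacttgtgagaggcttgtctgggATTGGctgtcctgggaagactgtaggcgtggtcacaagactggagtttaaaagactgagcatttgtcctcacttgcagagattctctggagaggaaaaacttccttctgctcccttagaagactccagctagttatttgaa
Usp45: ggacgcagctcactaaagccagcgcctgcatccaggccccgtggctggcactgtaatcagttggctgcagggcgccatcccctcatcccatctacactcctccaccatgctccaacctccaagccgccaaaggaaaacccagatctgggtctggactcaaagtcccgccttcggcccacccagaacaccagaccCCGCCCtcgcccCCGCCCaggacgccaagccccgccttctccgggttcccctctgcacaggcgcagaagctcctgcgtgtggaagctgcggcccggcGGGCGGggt

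The motifs searched were the TATA box TATAAA, the CCAAT box CCAAT, the GC box GGGCGG, the cyclic AMP response element TGACGTCA, the E-box CACGTG and the NOBOX element TAATTG. The CCAAT box read on the other strand, ATTGG, can share bases with TAATTG. The promoters of Ube2u and Usp17la, the genes with the largest increases, each held 2 CCAAT boxes on the other strand, with first bases at -156 and -127 for Ube2u and at -186 and -91 for Usp17la. Those of Ube2r2 and Usp45, the genes with the largest decreases, each held 3 GC boxes. Across all 32851 promoters, 37.4% held a CCAAT box and 35.7% a GC box, in any number and on either strand. The share with 2 or 3 was not counted. The GC content was 52.0% for Ube2u and 42.0% for Usp17la, against 81.7% for Ube2r2 and 66.7% for Usp45, with a median of 52.7% over all promoters. These 4 were picked for their differences, so what they share is a description and was not tested.

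Over both classes, 10 of 71 genes rose, 18 fell and 43 did not pass, where 37.2% of all genes tested passed in either direction. Among Ube2 genes 3 of 30 rose and 7 fell. Among Usp genes 7 of 41 rose and 11 fell. The share that passed was 33.3% for Ube2 genes and 43.9% for Usp genes, on either side of the 37.2% of all genes. Increases made up 3 of 30 Ube2 genes and 17.1% of Usp genes, against 18.9% of all genes, and decreases 23.3% and 26.8%, against 18.3% of all genes. At an adjusted p below 0.01 in limma, 7 Ube2 and 10 Usp genes passed, against 23.6% of all genes. The split of calls moved with the scaling of the arrays. With each array centred on the median of its probe sets, 3 Ube2 genes rose and 4 fell, and 6 Usp genes rose and 7 fell. After quantile normalization the counts were 3 and 9 for Ube2 and 5 and 13 for Usp genes. The calls of all genes moved too, from 1998 higher and 1943 lower to 1989 and 1455 with the centring. After quantile normalization they were 1901 and 2303. Without non-transgenic replicate 8 the lower Ube2 genes were 4, and without non-transgenic replicate 7 the lower Usp genes were 7.

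The median difference was -0.07 for Ube2 genes, -0.01 for Usp genes and -0.03 for all genes tested, and under the array median centring it was -0.03, 0.02 and 0.01. Without regard to sign, the median difference was 0.20 for Ube2 genes, 0.28 for Usp genes and 0.24 for all genes. Changes of at least 2-fold that passed were seen in 5 of the 71 genes, against 8.98% of all genes: Ube2u, Usp4 and Usp17la were higher (6.63% of all genes were) and Ube2r2 and Usp45 lower (2.35% of all genes were). The values of the groups did not overlap for 8 Ube2 and 12 Usp genes, 28.2% of the 71, against 28.0% of all genes tested. In 8 genes the RNAi-transgenic samples lay above (14.8% of all genes) and in 12 below (13.1% of all genes). All 71 had samples of both groups above the level, so none had passed it through 1 group alone, and 69 were above it in every sample.

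**Figure D1:**
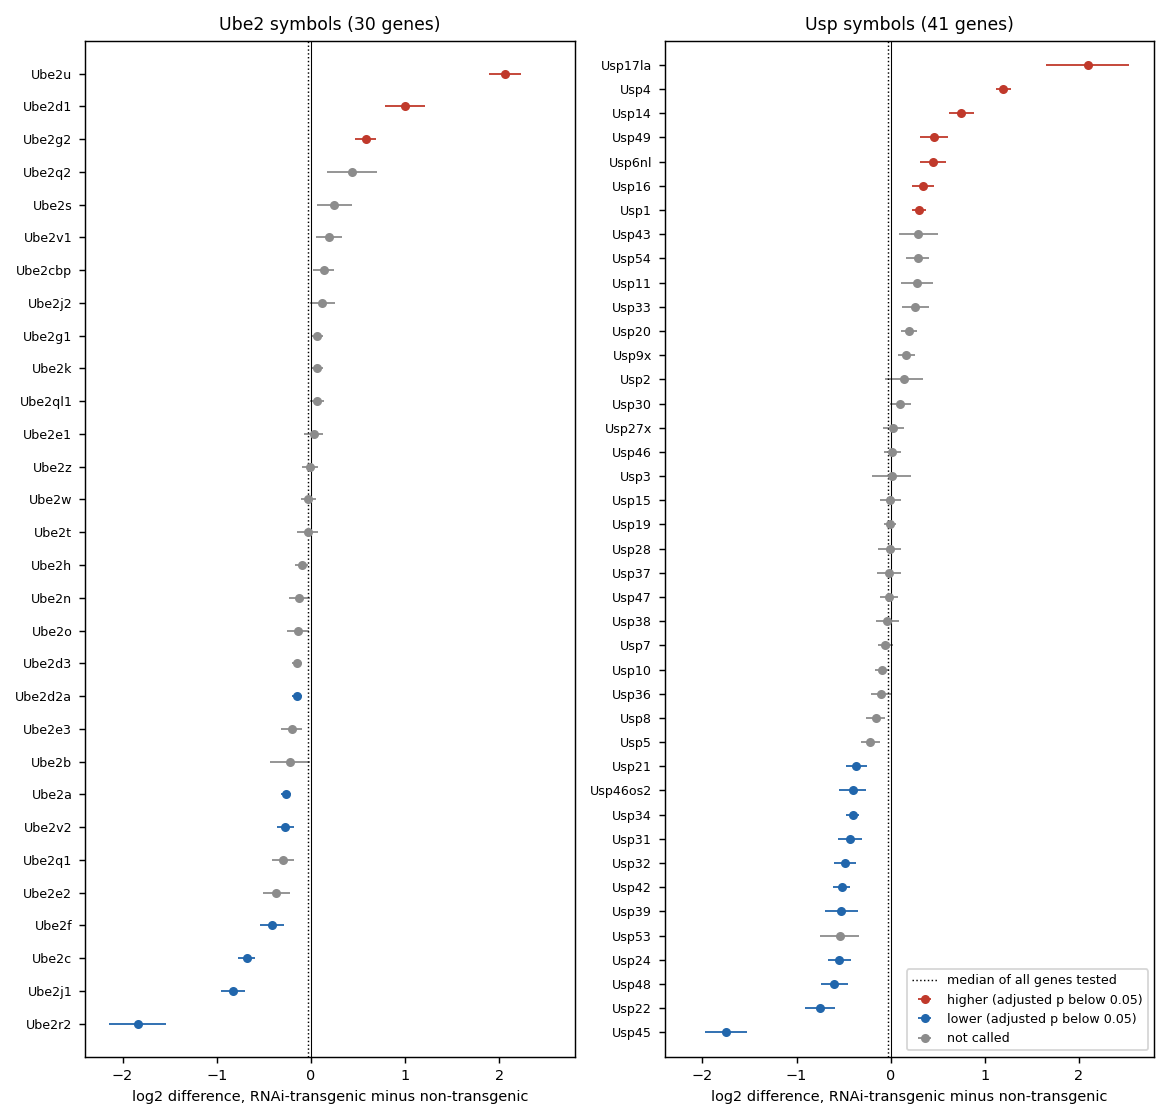
Log2 difference (RNAi-transgenic minus non-transgenic, x axis) of the 30 Ube2 genes (left) and 41 Usp genes (right), with bars of 1 standard error from limma. Red genes are higher and blue genes lower at adjusted p below 0.05, grey genes did not pass, and the dotted line is the median of all genes tested, -0.03. Most points lie close to 0, with Ube2u, Usp17la and Usp4 at the top and Ube2r2 and Usp45 at the bottom.

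**Figure D2:**
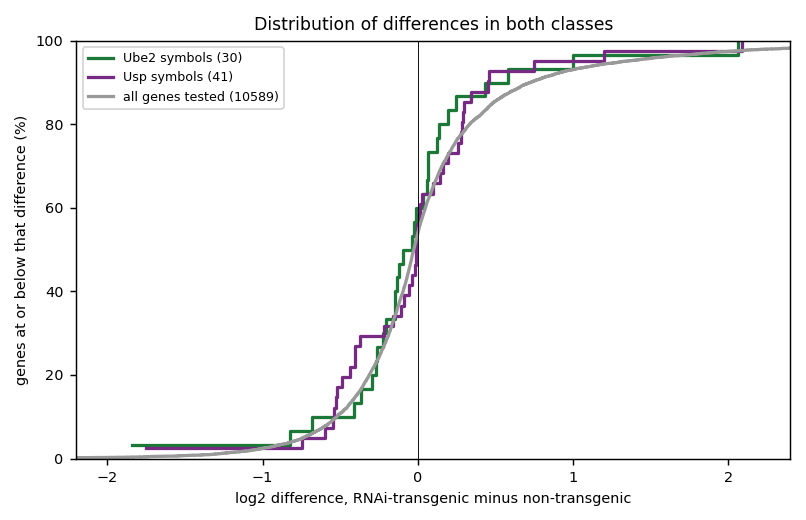
Cumulative share of genes (y axis, percent) at or below a given log2 difference (x axis, RNAi-transgenic minus non-transgenic) for 30 Ube2 genes, 41 Usp genes and 10589 genes tested. The 3 lines run close together around their medians of -0.07, -0.01 and -0.03.

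Ube2u, a little-studied E2, had the largest increase among the Ube2 genes. It was at log2 11.09, 10.77, 10.41, 10.56, 10.24 and 10.58 in RNAi-transgenic replicates 4, 5, 6, 11, 12 and 13, against 8.25, 8.79, 8.76 and 8.38 in non-transgenic replicates 1, 2, 7 and 8. Every RNAi-transgenic sample lay well above every non-transgenic one, by 2.06 on average (SE 0.17, 4.18-fold, limma adjusted p = 3.9e-06). The two-sided exact permutation test over the samples gave its smallest possible p of 0.00476.

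By role, the counts below are small and stand against 18.9% of all genes that rose and 18.3% that fell. Of the E2 enzymes that start chains on many targets, 1 of 7 rose and 1 fell. Ube2d1 was at 6.57 to 7.29 (median 6.85) in RNAi-transgenic samples and at 5.55, 5.90, 6.52 and 5.59 in non-transgenic samples. Non-transgenic replicate 7 lay just under the lowest RNAi-transgenic sample, so the groups did not overlap, and the rise was 1.00 (SE 0.21, limma adjusted p = 0.00368). Within samples numbered 7 to 13 the difference was 0.71 and did not pass (limma adjusted p = 0.144). Its close relatives Ube2d2a and Ube2d3 had the brightest probe sets of the class. Ube2d2a was at 14.91 ± 0.11 (SD, n = 6) in RNAi-transgenic and 15.06 ± 0.02 (SD, n = 4) in non-transgenic oocytes, with overlap, and fell by 0.15 (limma adjusted p = 0.0483). This call was lost on leaving out RNAi-transgenic replicate 4, 6, 12 or 13 or any non-transgenic replicate (limma adjusted p from 0.0742 to 0.107). Of its other 3 probe sets, 2 fell, by 0.27 and 0.47 (limma adjusted p = 0.00209 and 0.0337 over probe sets), and the brightest without a suffix for shared probes had a difference of 0.14 and did not pass. Ube2d3 differed by -0.15 and did not pass (limma adjusted p = 0.0574), though it passed in 10 of the alternative fits, among them the mean of its probe sets (-0.27, limma adjusted p = 0.00714) and the fit without RNAi-transgenic replicate 6 (limma adjusted p = 0.00397). Of its other 6 probe sets 3 fell, by 0.21, 0.36 and 0.43 (limma adjusted p = 0.0482, 0.00068 and 0.00716 over probe sets), and the other 3 differed by -0.04, -0.33 and -0.36. The others, Ube2e1, Ube2e2, Ube2e3 and Ube2w, had differences of 0.03, -0.37, -0.21 and -0.03 and did not pass.

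The E2 enzymes of degradation and of the endoplasmic reticulum (ER) moved in both directions, with 1 of 6 higher and 2 lower. Ube2r2, which works with cullin ligases, was at 5.42 to 6.08 (median 5.75) in RNAi-transgenic samples, against 6.45, 8.19, 8.06 and 7.59 in non-transgenic samples. Non-transgenic replicate 1 was more than 1 log2 unit below the other 3 and still above all RNAi-transgenic samples. Ube2r2 fell by 1.84 (SE 0.30, limma adjusted p = 0.000759), to 27.9% of its non-transgenic level. Within samples numbered 1 to 6 it differed by -1.49 and did not pass (limma adjusted p = 0.111). Ube2j1, an E2 anchored in the ER membrane, was at 7.57 to 8.26 (median 8.01) in RNAi-transgenic samples and at 8.62, 8.86, 8.85 and 8.77 in non-transgenic samples, without overlap, and fell by 0.83 (SE 0.13, limma adjusted p = 0.000492). Its other probe set differed by -0.44 and did not pass (limma adjusted p = 0.113 over probe sets). Ube2g2, which serves the same ER-associated degradation, went the other way. It was at 10.99 to 11.53 (median 11.22) in RNAi-transgenic samples and at 10.57, 10.50, 10.68 and 10.78 in non-transgenic samples, again without overlap, and rose by 0.58 (SE 0.11, limma adjusted p = 0.00164). Its difference was 0.55 within samples numbered 7 to 13 and did not pass (limma adjusted p = 0.0699). Ube2g1, Ube2j2 and Ube2k had differences of 0.07, 0.12 and 0.07 and did not pass, and the probe sets of Ube2g1 and Ube2k were among the 4 brightest of the class.

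Ube2c starts chains for the anaphase-promoting complex, the ligase that ends each meiotic division, and Ube2s lengthens them. Ube2c was at 8.42 to 8.78 (median 8.64) in RNAi-transgenic samples and at 9.21, 9.39, 9.28 and 9.28 in non-transgenic samples. The groups did not overlap, and Ube2c fell by 0.68 (SE 0.09, limma adjusted p = 0.000156), to 62.4% of its non-transgenic level. Ube2s was at 11.44 ± 0.35 (SD, n = 6) in RNAi-transgenic and 11.20 ± 0.28 (SD, n = 4) in non-transgenic oocytes, with a difference of 0.25 that did not pass (limma adjusted p = 0.331). Of 19 tested genes of the complex itself and its regulators, 1 rose and 7 fell, with a median difference of -0.19 (18.9% of all genes rose and 18.3% fell, with a median of -0.03). With each array centred on the median of its probe sets 1 rose and 3 fell, where 1989 of all genes rose and 1455 fell. With centring on the median of the genes tested 0 rose and 9 fell in limma, where 1754 of all genes rose and 2520 fell. The median difference was -0.15 under the first centring and -0.25 under the second, against 0.01 and -0.09 for all genes. The subunits Anapc1 and Anapc5 both fell by 0.26, while the activator Cdc20 rose by 0.33.

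Smaller decreases were seen in E2 genes of other duties. Ube2a, which with its ligases marks histone H2B and the replication clamp, was at 11.96 to 12.17 (median 12.08) in RNAi-transgenic and at 12.29, 12.36, 12.32 and 12.36 in non-transgenic samples. It fell by 0.26 (SE 0.05, limma adjusted p = 0.00294) without overlap, while its other probe set had a difference of 0.03. Ube2a did not pass within samples numbered 1 to 6 or 7 to 13 (limma adjusted p = 0.09 and 0.0823). With the mean of its probe sets it differed by -0.11 and did not pass (limma adjusted p = 0.197). Its near-copy Ube2b differed by -0.22 with non-transgenic replicate 1 high at 12.98, and did not pass, and Ube2t of Fanconi anaemia repair differed by -0.03. Ube2f, an E2 of the ubiquitin-like protein NEDD8, fell by 0.41 (SE 0.13, limma adjusted p = 0.0284) with overlap, and lost the call without non-transgenic replicate 8 or RNAi-transgenic replicate 5, 6 or 11 (limma adjusted p from 0.0525 to 0.0887). Its other 3 probe sets differed by -0.20, -0.32 and -0.22 and did not pass. Ube2v2, an inactive partner of Ube2n, was at 9.11 to 9.39 (median 9.33) in RNAi-transgenic and at 9.41, 9.61, 9.71 and 9.55 in non-transgenic samples, a fall of 0.27 (SE 0.09, limma adjusted p = 0.0303). It lost the call without non-transgenic replicate 2, 7 or 8 or RNAi-transgenic replicate 4 or 13 (limma adjusted p from 0.0561 to 0.087). Ube2n and Ube2v1 differed by -0.12 and 0.19. Ube2h, Ube2o, Ube2q1, Ube2q2, Ube2ql1 and Ube2z, and Ube2cbp, named for binding an E2, had differences between -0.29 and 0.44, and none passed.

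Usp4 had the clearest separation of all 71 genes by adjusted p. It was at 12.68, 12.46, 12.26, 12.40, 12.41 and 12.43 in RNAi-transgenic replicates 4, 5, 6, 11, 12 and 13, against 11.34, 11.29, 11.22 and 11.12 in non-transgenic replicates 1, 2, 7 and 8. Samples of each group lay close together, and Usp4 rose by 1.20 (SE 0.08, 2.29-fold, limma adjusted p = 7.1e-07). Its relatives Usp15 and Usp11, which share its domain layout, had differences of -0.01 and 0.28 and did not pass.

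Usp17la belongs to a family of near-identical genes on chromosome 7 that is known from cytokine-stimulated blood cells, and its probe set may read other copies. It was at 6.16, 6.06, 7.46, 8.06, 8.46 and 7.80 in RNAi-transgenic replicates 4, 5, 6, 11, 12 and 13, against 5.23, 5.26, 5.34 and 5.13 in non-transgenic replicates. RNAi-transgenic replicates 4 and 5 were more than 1 log2 unit below the other 4, and the SD of 1.00 was the largest in either group of the 71 genes. The non-transgenic values lay just above the level of log2 5, so the size of a difference from them is uncertain. The rise was 2.09 (SE 0.44, limma adjusted p = 0.00361, exact permutation p = 0.00952). Within samples numbered 1 to 6 it was 1.31 and did not pass (limma adjusted p = 0.101).

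Of the USP genes of the proteasome and of free chains, Usp14, which trims chains at the proteasome, was at 9.98 to 10.24 (median 10.10) in RNAi-transgenic samples and at 9.12, 9.11, 9.79 and 9.42 in non-transgenic samples. There was no overlap and the rise was 0.75 (SE 0.13, limma adjusted p = 0.00108). Usp14 differed by 0.55 within samples numbered 7 to 13 and did not pass (limma adjusted p = 0.0507). Its other probe sets were higher by 0.43 and 0.56. Usp5, which takes apart free chains, differed by -0.22 and did not pass.

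Usp45, a deubiquitinase of the repair nuclease subunit Ercc1, had the largest decrease among Usp genes. It was at 8.15, 8.77, 7.67, 8.67, 8.58 and 7.75 in RNAi-transgenic replicates 4, 5, 6, 11, 12 and 13, against 10.05, 10.12, 9.82 and 10.07 in non-transgenic replicates. The RNAi-transgenic samples spread over more than 1 log2 unit, all below the non-transgenic ones. Usp45 fell by 1.75 (SE 0.22, limma adjusted p = 0.000118), to 29.8% of its non-transgenic level, and its other probe sets differed by -1.51 and -0.72. Of the other repair and cell cycle members, Usp48 was at 10.72 to 11.22 (median 10.94) in RNAi-transgenic and at 11.97, 11.37, 11.41 and 11.44 in non-transgenic samples, a fall of 0.60 (SE 0.14, limma adjusted p = 0.00624). Its difference was -0.30 within samples numbered 7 to 13 and did not pass (limma adjusted p = 0.0676). Usp1, which acts on the Fanconi protein Fancd2, was at 12.14 to 12.31 (median 12.23) in RNAi-transgenic and at 11.71, 11.94, 12.14 and 11.92 in non-transgenic samples, and rose by 0.30 (SE 0.08, limma adjusted p = 0.01). Non-transgenic replicate 7 lay just under the lowest RNAi-transgenic sample, and the other 2 probe sets of Usp1 differed by -0.17 and -0.11. With the mean of its probe sets the difference was 0.00753 (limma adjusted p = 0.957), and the call was also lost with the Gapdh covariate and in both ranges of sample numbers (limma adjusted p from 0.0508 to 0.197). Usp28, Usp37, Usp46 and Usp47 differed by -0.01, -0.01, 0.02 and -0.02.

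Among USP genes known for histones and chromatin, 2 of 9 rose and 3 fell, where 18.9% of all genes rose and 18.3% fell. Usp22, which removes ubiquitin from histone H2B as part of the SAGA coactivator, was at 5.38 to 5.77 (median 5.64) in RNAi-transgenic and at 6.52, 6.16, 5.96 and 6.84 in non-transgenic samples, a fall of 0.75 (SE 0.16, limma adjusted p = 0.00362). Within samples numbered 7 to 13 it differed by -0.72 and did not pass (limma adjusted p = 0.11). Of 3 other SAGA genes looked at, Sgf29 fell by 1.07, while Eny2 and Atxn7, partners of Usp22 that were named after their values were seen, differed by -0.26 and 0.31 and did not pass (limma adjusted p = 0.0597 and 0.0713). Usp42 was at 9.52 to 9.88 (median 9.71) in RNAi-transgenic and at 10.11, 10.37, 10.22 and 10.24 in non-transgenic samples, and fell by 0.52 (SE 0.09, limma adjusted p = 0.00116). Its difference was -0.45 within samples numbered 1 to 6 and did not pass (limma adjusted p = 0.0857). Neither Usp22 nor Usp42 had overlap between groups. Usp21, which acts on histone H2A, fell by 0.37 with overlap, at 9.25 to 9.58 in RNAi-transgenic and 9.40, 9.81, 9.88 and 9.89 in non-transgenic samples (limma adjusted p = 0.0233). It lost the call without non-transgenic replicate 2, 7 or 8 (limma adjusted p from 0.0612 to 0.0696). Usp16, of histone H2A, rose by 0.34 (limma adjusted p = 0.0376) and Usp49, of histone H2B, by 0.46 (limma adjusted p = 0.0307), both with overlap. For Usp16 the call was lost without non-transgenic replicate 1 or 8 or without RNAi-transgenic replicate 4, 5, 6, 11 or 13 (limma adjusted p from 0.0586 to 0.0697). For Usp49 it was lost without non-transgenic replicate 1 or 2 or RNAi-transgenic replicate 5, 6 or 11 (limma adjusted p from 0.0562 to 0.0853). Without non-transgenic replicate 1 the rise of Usp16 was 0.21. Usp3, Usp7, Usp27x and Usp36 differed by 0.01, -0.06, 0.03 and -0.11 and did not pass. With the mean of its probe sets, though, Usp7 fell by 0.30 and passed (limma adjusted p = 0.0114).

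Of 14 USP genes of signalling and membrane traffic, 1 rose, Usp4, and 4 fell, 35.7% in all against 37.2% of all genes. Usp34, known for the Wnt pathway protein axin, was at 11.50 to 11.74 (median 11.60) in RNAi-transgenic and at 12.09, 11.89, 12.00 and 12.09 in non-transgenic samples. It fell by 0.41 (SE 0.07, limma adjusted p = 0.000811) without overlap, and its other probe sets differed by -0.64 and -0.46. Usp24 fell by 0.54 (SE 0.12, limma adjusted p = 0.00428), at 8.91 to 9.41 in RNAi-transgenic and 9.56, 9.91, 9.87 and 9.54 in non-transgenic samples. Within samples numbered 7 to 13 it differed by -0.40 and did not pass (limma adjusted p = 0.102). Usp32 fell by 0.49 with overlap (limma adjusted p = 0.00799), and lost the call within samples numbered 1 to 6 (limma adjusted p = 0.0933) and with the 3′ to 5′ Gapdh difference, a measure of RNA length, as a covariate (-0.41, limma adjusted p = 0.0616). Usp31 fell by 0.43 without overlap (limma adjusted p = 0.023) and lost the call without non-transgenic replicate 7 or 8 (limma adjusted p = 0.0695 and 0.0535). Its other 2 probe sets differed by -0.24 and -0.09 and did not pass (limma adjusted p = 0.118 and 0.669 over probe sets). The remaining 9 members, Usp2, Usp8, Usp9x, Usp10, Usp15, Usp20, Usp33, Usp38 and Usp43, differed by -0.16 to 0.29 and did not pass. In the ER and mitochondrial membranes, Usp19 and Usp30 differed by -0.01 and 0.10.

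Some symbols with a Usp name stand for other things. Usp39, a splicing factor that lacks protease activity, was at 13.25, 12.58, 12.51, 13.20, 12.67 and 12.25 in RNAi-transgenic replicates 4, 5, 6, 11, 12 and 13, against 13.36, 13.25, 13.22 and 13.25 in non-transgenic replicates. RNAi-transgenic replicate 4 lay within the non-transgenic range, replicate 11 just under it and the other 4 further below. The fall of 0.52 passed (limma adjusted p = 0.04, exact permutation p = 0.0286) but was lost on leaving out RNAi-transgenic replicate 5, 6, 12 or 13 or any non-transgenic replicate (limma adjusted p from 0.0645 to 0.089). Among other Usp genes, Usp53 and Usp54 differed by -0.54 and 0.28 and did not pass. Usp6nl, which regulates the small GTPase Rab5 and is no protease, rose by 0.45 (limma adjusted p = 0.0251), with RNAi-transgenic replicate 4 at 7.78 and the other 5 at 7.08 to 7.24. It lost the call without non-transgenic replicate 2 or 7 (limma adjusted p = 0.0714 and 0.0648). The other probe set of Usp6nl differed by 0.07 and did not pass (limma adjusted p = 0.726 over probe sets). Usp46os2, by its name a transcript opposite to Usp46, fell by 0.40 (limma adjusted p = 0.0415) and was named after its value was seen. With these 2 and Ube2cbp set aside, 3 Ube2 genes rose and 7 fell of 29, and 6 Usp genes rose and 10 fell of 39.

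**Figure D3:**
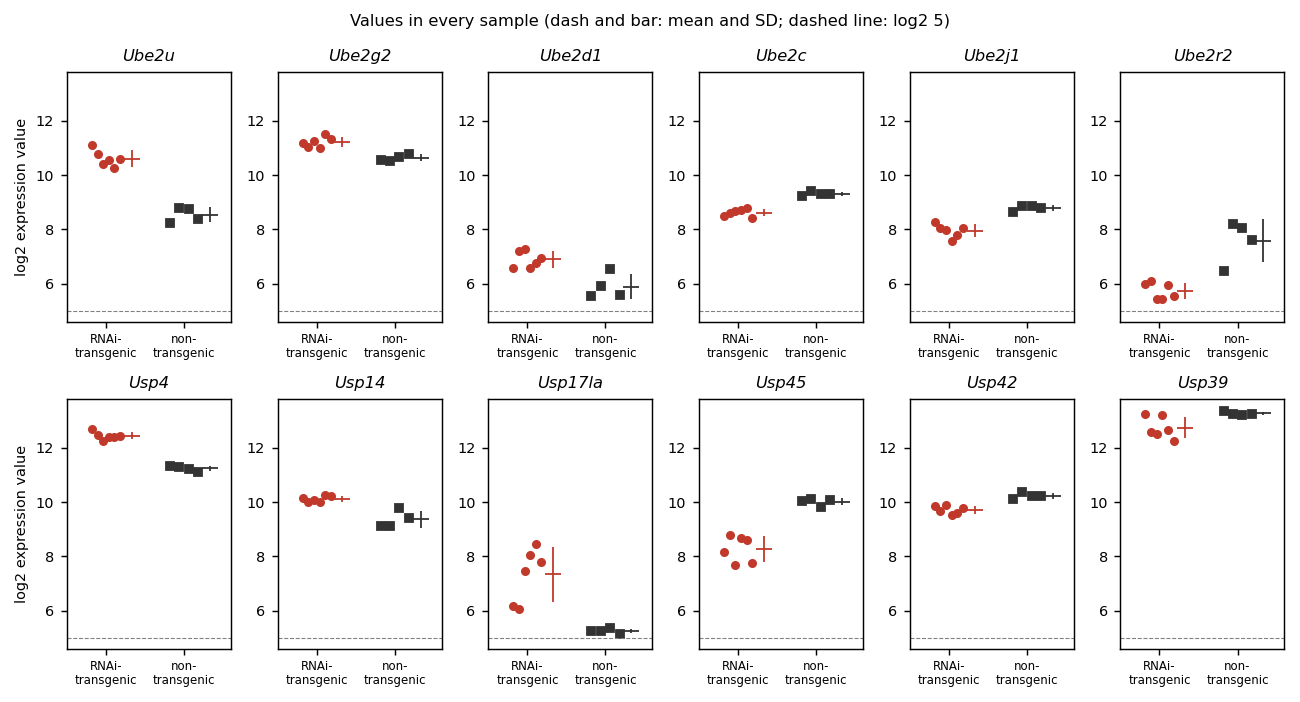
Log2 expression value (y axis) in each of 6 RNAi-transgenic (red circles) and 4 non-transgenic samples (black squares) for 12 genes. The dash and bar beside each group are its mean and SD, and the dashed line is the level of log2 5. Usp4 and Ube2u separate cleanly, Usp17la is low in 2 of 6 RNAi-transgenic samples, and Usp39 overlaps.

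The 12 genes that did not reach the level were the Ube2 genes Ube2d2b and Ube2l6 and the Usp genes Usp9y, Usp12, Usp13, Usp18, Usp25, Usp26, Usp29, Usp40, Usp44 and Usp50. Nearest to it was Usp13, above log2 5 in 3 samples with means of 4.97 in RNAi-transgenic and 4.94 in non-transgenic oocytes, followed by Usp12, above it in 1 sample. Just inside were Ube2ql1, above it in 6 samples at 5.03 and 4.97, and Usp53, above it in 8. Ube2l6 and Usp18, the E2 and the protease of the interferon-induced modifier ISG15, stayed between 3.60 and 3.77 and between 1.91 and 2.09 over all 10 samples.

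Probe sets of 1 gene did not always move alike. For 35 of the 71 genes more than 1 probe set was above the level, and each of the genes' 138 probe sets was tested in a fit over 16807, of which 34.0% passed. Where the brightest probe set of such a gene had passed among genes (13 genes), another passed in the same direction for 7. For Usp45, Usp14, Usp34 and Usp48 all 3 passed in 1 direction. Of 22 genes that had not passed, 5 had another probe set that did. Usp7, a major nuclear deubiquitinase, differed by -0.06 at its brightest probe set and fell by 0.51 and 0.46 at 2 of the others (limma adjusted p = 0.00911 and 0.0109). Usp9x passed in both directions, with 1 probe set at 0.73 and another at -0.53 (limma adjusted p = 0.00971 and 0.00904), while its brightest differed by 0.16.

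**Figure D4:**
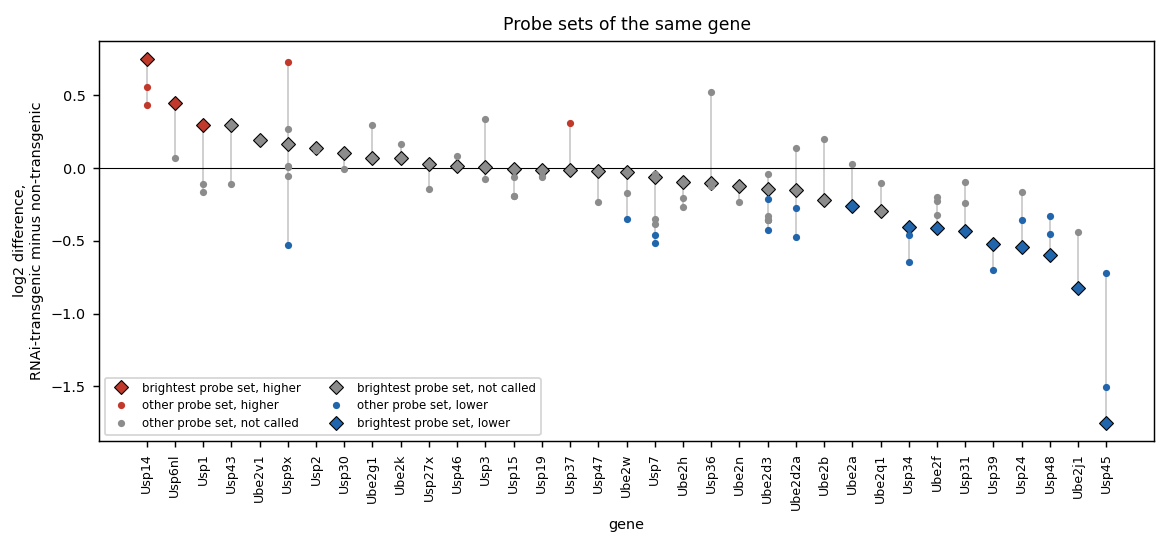
Log2 difference (y axis, RNAi-transgenic minus non-transgenic) of every probe set above the level for the 35 genes with more than 1, ordered by the brightest probe set (diamonds). Red is higher and blue lower at adjusted p below 0.05 in the fit over 16807 probe sets, grey did not pass. Usp45 and Usp14 move together at all 3 probe sets, and Usp9x has a probe set on each side.

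The rest of the ubiquitin system gave the following counts, to be read against the 18.9% of all genes that rose, the 18.3% that fell and their median of -0.03. Of 34 tested genes of other deubiquitinase families, 4 rose and 14 fell, with a median difference of -0.18 (4 and 11 with -0.15 under array median centring). Under that centring 1989 of all genes rose and 1455 fell, with a median of 0.01. Otud1 rose by 1.20 and Mindy1 by 0.54, and Zup1 and Mindy4 fell by 0.78 and 0.74. Of 11 genes listed as partners of deubiquitinases, 2 rose, G3bp1 by 0.94 and Stam to at least 1.40-fold, with 1 non-transgenic sample below the level. In the same list 2 fell, Sgf29 and Dmwd, the second by 0.28. Sgf29 is counted there as a SAGA gene, and whether it binds a deubiquitinase was not looked at. Of 14 ubiquitin and E1 genes listed, 7 had a probe set and 6 were tested. The 6 were genes of E1 enzymes and their subunits, with no ubiquitin gene among them, and 2 rose and 2 fell. Uba3 and Nae1, which together activate NEDD8, rose by 0.35 and 0.22, while Sae1 and Atg7, of the SUMO and autophagy conjugation systems, fell by 0.67 and 0.36. Of 7 E2 genes of other names, Atg10 rose by 0.54, Birc6 fell by 0.59 and the others did not pass.

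Ligases moved in both directions too. Of 43 E3 genes that work with these E2 enzymes, 5 rose and 10 fell, with a median of -0.08. These 34.9% were near the 37.2% of all genes that passed. Rnf168, which extends ubiquitin marks at broken DNA, fell by 1.19, and Ube3a, the Angelman syndrome ligase, by 0.68. Ubr1, which pairs with Ube2a and Ube2b, rose by 0.63, and Rnf2 of Polycomb complex 1 by 0.37. Of 36 cullin and F-box genes 22.2% passed, against 37.2% of all genes. In this list 2 rose, Cul5 by 0.72 and Fbxo30 by 0.52, and 6 fell. Fbxw11 fell by 0.70 and Cul3 by 0.45. Of 21 genes of SUMO, NEDD8 and related modifiers, 3 rose and 4 fell (33.3%, against 37.2% of all genes), with the SUMO proteases Senp2 higher by 0.72 and Senp6 lower by 0.79, and the SUMO ligases Pias2 higher by 0.36 and Topors lower by 0.33.

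Arrays also differed within the groups. Non-transgenic replicate 1 was the lowest of its group for 38 of the 71 genes (53.5%), against 35.3% of all genes tested, and non-transgenic replicate 7 was the highest for 39.4%, against 32.2%. The difference between the 3′ and 5′ Gapdh control probe sets, a measure of RNA length, moved with the groups. It was 3.63 to 3.75 in 5 RNAi-transgenic samples and 4.12 in replicate 6, against 4.13, 3.72, 4.00 and 4.34 in non-transgenic replicates 1, 2, 7 and 8. With it as a covariate 4 Usp genes rose and 7 fell, 3 Ube2 genes rose and 5 fell, and 18 of the 27 named genes kept their calls. The 9 that lost it were Ube2f, Ube2v2, Usp1, Usp16, Usp21, Usp31, Usp32, Usp39 and Usp49 (limma adjusted p from 0.0526 to 0.181). The same difference for beta-actin was 5.13 in RNAi-transgenic replicate 6 and 3.40 to 3.93 in the other 5, against 3.44 to 4.01 in non-transgenic samples. The part of RNA length in the results was not tested beyond these fits. Without non-transgenic replicate 1 and RNAi-transgenic replicate 6 together, 3 Ube2 genes rose and 7 fell, and 4 Usp genes rose and 10 fell. For this fit and the Gapdh covariate, counts over all genes are not given here. Whether the lost calls were particular to these genes was not tested. Ube2u, Ube2c, Ube2j1, Usp4, Usp34 and Usp45 stayed below an adjusted p of 0.05 in every alternative limma fit that held them, including within the samples numbered 1 to 6 and within those numbered 7 to 13, ranges that no label calls batches. Of the 27, 14 did not pass within 1 to 6 and 17 within 7 to 13, each with fewer samples.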

How the data were processed

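RNA of 50 oocytes from 1 mouse a sample was read on oligonucleotide arrays of 45101 probe sets. The authors deposited 1 linear intensity per probe set and sample, made with GCRMA per the submitters' processing notes. GCRMA's version and settings are not given in the sources used here. Array medians lay between 17.46 and 20.08 and the number of arrays limits the precision. Intensities were turned to log2 here without further scaling. Genes came from GEO's platform annotation: 34958 probe sets had 1 gene symbol, 932 several and 9211 none, and those with several, as well as array controls, were left out. Symbols were checked through RefSeq gene IDs, which held 82 of the 83.

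The brightest probe set by mean over 10 samples stood for a gene, and genes above log2 5 in at least 4 samples (10589) were tested with limma 3.58.1 in R 4.3.3 (lmFit, eBayes with a trend), with Benjamini-Hochberg adjustment over all of them. The script was tested on simulated data. For single genes the group labels were also permuted exactly over the samples (two-sided). Figures were drawn with matplotlib 3.10.9. Members with adjusted p below 0.05 were named, up to 10 in each direction and class, with the 4 brightest of each class and up to 2 genes in each direction of each pathway list. The other members are given by their difference. The members and lists were chosen with earlier results of these data known. Alternatives changed the level, scaling, probe set, variance model, covariates and samples.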

Additional observations from a re-analysis of the deposited data

Results flagged for a closer look

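For the genes named, 68 groups of samples were looked at for 1 sample far from the rest (Dixon's test at 95%), and 4 were found, where chance gives about 1 in 20. RNAi-transgenic replicate 6 had Usp7 at 13.37, with the nearest of its group at 13.00. RNAi-transgenic replicate 4 had Usp6nl at 7.78, with the nearest at 7.24. Non-transgenic replicate 1 had Usp48 at 11.97, with the nearest at 11.44, and Usp21 at 9.40, with the nearest at 9.81. Without RNAi-transgenic replicate 6, Usp7 passed with a fall of 0.12 (limma adjusted p = 0.0322). Usp48, Usp21 and Usp6nl kept their calls without the sample that stood apart.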

How the results depend on the processing

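Of the 27 named genes that passed, 26 kept their sign in every alternative fit that held them. The exception was Ube2d2a, at 0.14 (limma adjusted p = 0.258) with the brightest probe set without a suffix for shared probes, where 4 Ube2 genes fell. The cause was not tested. Within samples numbered 1 to 6, 1913 of all genes passed, 2 Ube2 genes fell, 3 Usp genes rose and 6 fell, and the Usp median was 0.065. Within samples numbered 7 to 13, 2263 genes passed, 1 Ube2 gene rose, 2 Usp genes rose and 4 fell, and the Usp median was -0.11. These ranges hold fewer samples.

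Array median centring gave 4 lower Ube2 and 7 lower Usp genes, with 1455 lower among all genes tested, against 1943 without it. With the Gapdh difference as a covariate 4 Usp genes rose and 7 fell, and without non-transgenic replicate 1 and RNAi-transgenic replicate 6 together 4 Usp genes rose. Both of these, the beta-actin covariate, centring on the tested genes and the sets without Ube2cbp, Usp6nl and Usp46os2 were chosen after seeing the data. For the Gapdh covariate and for those samples left out together, counts over all genes are not given here. At an adjusted p below 0.01 in limma, 2502 genes passed, 4 Ube2 genes fell, 3 Usp genes rose and 7 fell. At below 0.05 and at least 2-fold, 951 genes passed, with 1 Ube2 gene in each direction, 2 Usp genes higher and 1 lower.

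Leaving out 1 sample at a time gave 3383 to 3773 genes, 3 higher Ube2 genes throughout, 4 to 7 lower Ube2 genes, 5 to 8 higher Usp genes and 7 to 11 lower Usp genes, with class medians from -0.10 to -0.02 (Ube2) and -0.06 to 0.01 (Usp). No paired analysis was possible because the groups share no replicate number. Signal near the background limits the lowest probe sets.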
